A study of Rattus norvegicus with 6 samples.

Results

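Integrins are cell surface receptors built from an alpha and a beta subunit, and laminins are trimers of an alpha, a beta and a gamma chain that integrins and other receptors bind. This account follows the genes of both families in cultured primary disc cells of the rat jaw joint, taken from the fibrous cushion that separates its bones. The members were found by symbol alone, as every gene of the deposited table named as an integrin alpha subunit, a numbered integrin beta subunit or a laminin chain. The rule found 36 genes among 20675: 17 integrin alpha, 8 integrin beta and 11 laminin genes.

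The 6 libraries compared were 3 from cells given the TRPV4 agonist GSK101 for 24 h and 3 from cells given the solvent DMSO for the same time. TRPV4 is a calcium-permeable cation channel that responds to mechanical and osmotic stimuli, and the comparison asks what its activation does to the cells' transcripts. Strain, age, sex, passage and the number of animals behind each library are not given in the sources used here, so p-values measure the spread between these libraries, which may be partly technical. Each library held 43061102 to 45705238 counted reads. Levels are RPKM, a read number divided by the gene's length and the library's depth, so levels of different genes can be set side by side.

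As background, the alpha subunit largely sets which matrix protein an integrin binds, and the beta subunit's short tail links it to talin, kindlin and the actin cytoskeleton. Beta 1 pairs with most of the alpha subunits of connective tissue cells. Laminins are best known as the network formers of basement membranes, and fibroblasts also secrete some of their chains. In a laminin trimer the gamma 1 chain is the most widely shared chain, while alpha chains carry the main sites for receptors.

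Fibroblast markers were abundant, as the label of disc cells leads one to look for. Summed over 9 fibroblast markers found in the table the level was 13725 to 14559 RPKM in the controls against 12526 to 13600 after GSK101. Single markers did not share this direction: 3 rose (Pdgfra, Lum and Dcn, log2 fold changes 0.43, 0.54 and 0.41), Thy1 fell (-0.23) and 5 did not pass. Vim and Col3a1, the largest parts of the sum, were among those that did not pass (-0.13 and -0.10). Lists for other cells summed to far less, apart from smooth muscle. The 7 epithelial markers summed to 2.10 to 2.36 RPKM in controls and 1.79 to 2.06 after GSK101, mostly Krt8, which did not pass (log2 fold change -0.22). Over the 6 libraries 11 leukocyte and macrophage markers summed to 12.1 to 17.1 and 7 Schwann cell markers to 31.4 to 37.3. Several other sums moved with treatment. The 8 endothelial markers summed to 4.49 to 5.14 in controls and 3.42 to 3.51 after GSK101. This sum was mostly Erg, which fell (log2 fold change -0.75), while Kdr, the only other one tested, rose (0.53). The 8 skeletal muscle markers summed to 19.1 to 20.7 and 14.1 to 15.7, with Acta1 the largest part. Of 4 tested 3 fell, Acta1 among them (log2 fold change -0.65), and Tnnt3 did not pass (0.16). Myh3, another of the 3, passed the filter of 0.5 RPKM in 3 or more libraries only through its controls. Its fall was thus fixed in advance. The 10 chondrocyte markers summed to 42.6 to 52.8 and 54.3 to 74.2, where Prg4 (lubricin) rose 2.84-fold and Acan did not pass, and the 4 platelet markers to 22.6 to 27.2 and 28.6 to 42.7, nearly all of it Pf4. Of 9 pericyte and smooth muscle markers 8 were tested, 6 fell and none rose. Their sum of 5551 to 5776 in controls and 3090 to 3370 after GSK101 was mostly Acta2, at 4946 ± 105 and 2734 ± 121 (SD, n = 3), and Myh11, Cnn1 and Mcam fell too, while Cspg4 and Des had log2 fold changes of 0.20 and 0.26 and did not pass. Whether fewer cells of a kind or less RNA per cell lies behind a lower level cannot be told apart in bulk samples. None of the markers found in the table was at 0 in all 6 libraries.

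Integrin transcripts fell in sum while laminin transcripts did not, and in both families single chains moved in different directions. Of the 36 genes, 23 reached 0.5 RPKM in 3 or more libraries and entered the limma fit. Among these 6 rose (Itga3, Itga4, Itga5, Itgb3, Lama4 and Lamc1), 5 fell (Itga8, Itga11, Itgb1, Lamb1 and Lamb2) and 12 did not pass an adjusted p of 0.05. Over all 12801 genes tested, 31.9% passed, 20.1% as higher and 11.9% as lower. The median log2 fold change, GSK101 against control, was 0.04 for the 23 genes and 0.03 for all tested genes. For 14 of the 23 the groups did not overlap, beside 47.3% of all tested genes. Itga4 entered only through its GSK101 libraries, so it had to differ, and the counts over these 23 genes are given as a description.

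The split between rises and falls moved with the scaling between libraries. It was 6 higher and 5 lower with RPKM as deposited, 4 and 5 with median-ratio scaling, 4 and 6 with quantile normalization, and 2 and 6 with each library's gene length trend removed. Leaving out a library also lowered the counts: 3 rose without control replicate 3, 2 rose and 3 fell without GSK101 replicate 1, and 2 rose without GSK101 replicate 2. Calls that stood under all 18 alternatives tried were those of 4 genes, Itga3, Itga11, Itgb1 and Lamb2.

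**Figure D1:**
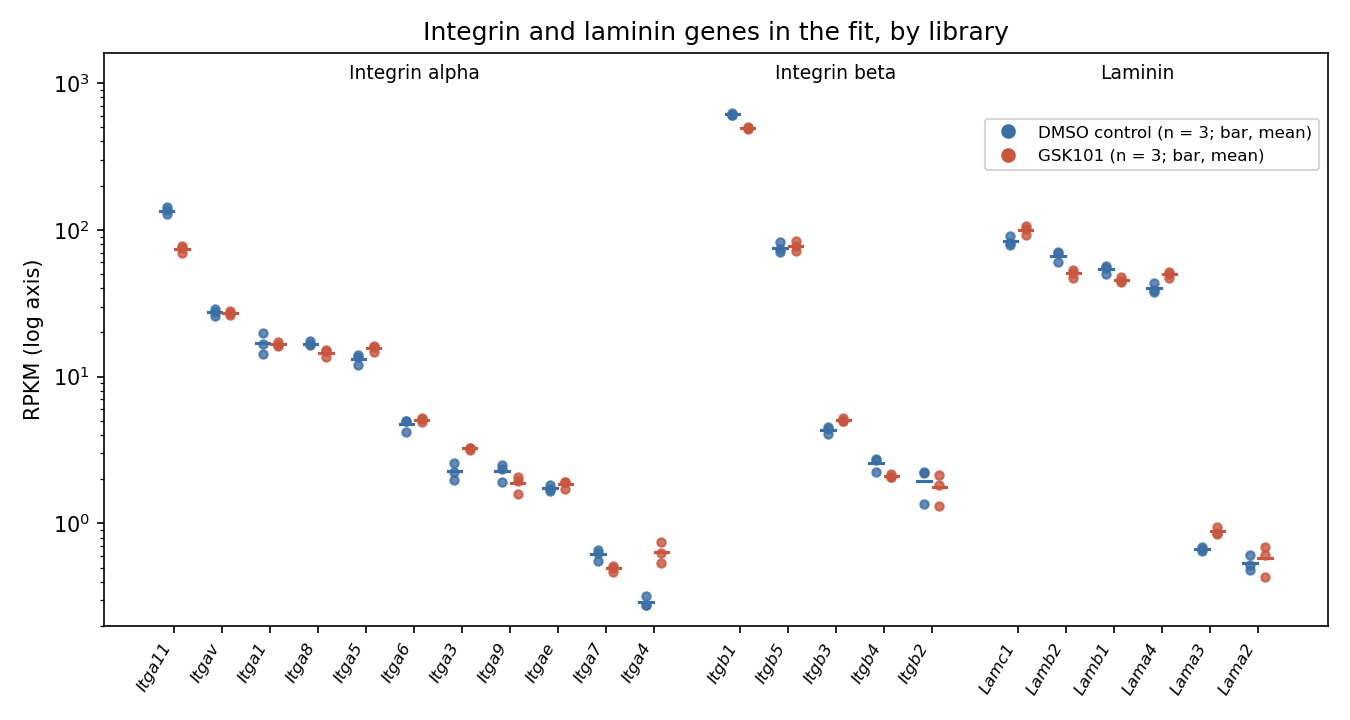
RPKM on a log axis of 22 of the integrin and laminin genes in the fit, in each of the 3 control (blue) and 3 GSK101 (red) libraries, with bars at the group means. Itgb1 lies above all others at 602 to 627 RPKM in the controls and 486 to 499 after GSK101, and Itga11 is the alpha subunit gene with the highest level in both groups.

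Of the collagen-binding alpha subunit genes 2 were tested, and Itga11 fell while Itga1 did not pass. Itga11 encodes alpha 11, which pairs with beta 1 to bind fibrillar collagens and is typical of fibroblasts. It lies on the plus strand of chromosome 8 from 67615635 to 67683973 on the Rnor_6.0 build and had RPKM levels of 142, 135 and 128 in the controls and 69.7, 77.4 and 75.6 with GSK101. Each GSK101 library lay far below each control library, and the means were 135 ± 7.29 and 74.3 ± 4.01 (SD, n = 3), 1.82-fold lower. On the log2 scale the difference was -0.86 (SE 0.06, limma adjusted p = 0.000107), and it ran from -0.97 to -0.82 over the 18 alternatives. Of the 23 genes this was the largest fall.

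Itga1 encodes the other abundant collagen-binding alpha subunit. Its RPKM was 16.8, 14.3 and 19.7 in the controls and 16.3, 17.1 and 16.5 with GSK101, inside the control range throughout. Its log2 fold change was -0.02 with a 95% interval from -0.25 to 0.22. Within each library the ratio of Itga11 to Itga1 was 8.49, 9.47 and 6.47 in the controls and 4.29, 4.54 and 4.59 with GSK101, a comparison chosen after the values were seen. The groups did not overlap. Itga2 and Itga10, the remaining receptors of this kind, had at most 34 reads in a library and lay below the filter, with exact two-sided permutation p of 0.4 and 0.7.

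Itga11 made up most of the integrin alpha transcripts, so its fall showed in the family's total. The 17 alpha genes summed to 223 ± 8.98 RPKM in control libraries and 162 ± 5.42 after GSK101 (SD, n = 3). Without Itga11 the other 16 summed to 87.5 ± 3.84 and 88.2 ± 3.06, which overlapped (exact two-sided permutation p = 0.8). The share of Itga11 in the alpha total went from 60.7 ± 1.50% to 45.7 ± 1.51%, and no GSK101 library reached the lowest control. The exact permutation p was 0.1, the smallest that 3 against 3 allows, or 0.169 adjusted over the 22 shares compared, of which 13 did not overlap. Shares of a family add up to 100, so alpha subunits could take a larger share without a higher level: Itgav held 12.4 ± 0.45% and 16.8 ± 0.42% at levels of 27.5 ± 1.36 and 27.2 ± 0.78 RPKM.

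**Figure D2:**
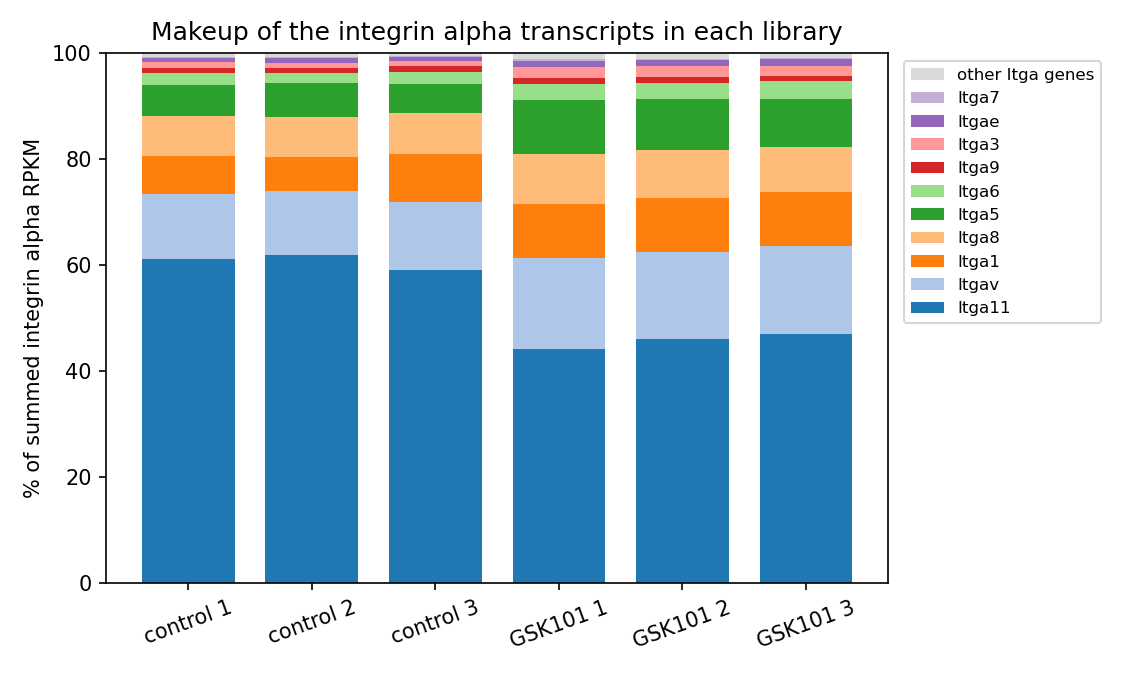
Stacked bars of the percent of the summed integrin alpha RPKM that each gene holds, for each of the 3 control and 3 GSK101 libraries, with genes below a mean of 0.5 RPKM pooled in grey. Itga11, at the bottom, holds a mean of 60.7% in the controls and 45.7% with GSK101.

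Itgb1, which encodes the shared beta 1 subunit, fell by less. It lies on the plus strand of chromosome 19 from 61677542 to 61725535 and had RPKM levels of 607, 602 and 627 in the controls and 486, 492 and 499 with GSK101. The 2 groups were well separated, with means of 612 ± 13.01 and 492 ± 6.60 (SD, n = 3), 1.24-fold lower. The log2 fold change was -0.31 (SE 0.04, adjusted p = 0.000962). With 78631 to 101435 reads per library, it was the most deeply counted of the 36 genes. The ratio of Itga11 to its partner Itgb1 also differed, 0.235, 0.225 and 0.204 in the controls and 0.143, 0.158 and 0.151 with GSK101, again chosen after the values were seen.

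The stretches upstream of Itga11 and Itgb1, partners in one receptor and both lower, are shown from RefSeq on the GRCr8 build, from 250 bases before the annotated start of each gene, on the strand of the gene. Both lie on the plus strand, at chr8:72041182-72041431 and chr19:73602027-73602276. Capitals mark matches, on either strand, to GGGCGG (the GC box bound by SP1-type factors) and GGAATG (the TEAD motif).

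Itga11: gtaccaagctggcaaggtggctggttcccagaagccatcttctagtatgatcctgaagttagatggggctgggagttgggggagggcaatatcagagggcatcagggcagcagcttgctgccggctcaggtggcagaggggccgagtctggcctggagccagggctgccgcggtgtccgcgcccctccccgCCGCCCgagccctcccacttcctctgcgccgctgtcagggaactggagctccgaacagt

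Itgb1: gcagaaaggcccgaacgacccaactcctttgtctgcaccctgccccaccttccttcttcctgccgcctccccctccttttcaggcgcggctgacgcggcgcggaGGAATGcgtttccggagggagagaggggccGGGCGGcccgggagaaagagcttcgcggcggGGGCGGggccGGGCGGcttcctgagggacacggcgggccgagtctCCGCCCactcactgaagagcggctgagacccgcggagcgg

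The Itga11 stretch held 1 GC box and the Itgb1 stretch held 4 and 1 TEAD match. Among 33469 promoters of the same length 30.5% held a GC box and 12.1% a TEAD match, and of the 27 genes of the 2 families with an entry 13 and 5 did. Neither stretch held TGANTCA, the AP-1 motif, or a match to the CArG box of SRF or the kappaB motif. AP-1 matches were found in 2 of the 27, Itgax and Lama3, and in 6.34% of all promoters. CArG boxes were found in Itgb6 and Lama2 (1.50% of all) and kappaB matches in Itga5 and Lamb3 (6.33% of all). Such matches describe these letters only, and whether a factor binds there was not measured.

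Other beta subunits were lower in level and moved less. Itgb5, which pairs with alpha V to bind vitronectin, was at 82.2, 74.2 and 70.2 RPKM in the controls and 78.1, 83.2 and 71.3 with GSK101, and its log2 fold change of 0.04 had a 95% interval from -0.13 to 0.21. Its exons share 1758 bases with an unnamed gene on the opposite strand, and whether strand was used in counting is not given, so its level is less certain. Itgb3, which encodes a further partner of alpha V, rose from 4.41, 4.06 and 4.51 RPKM to 4.96, 5.22 and 4.99, with no overlap. Its log2 fold change was 0.20 (SE 0.06, adjusted p = 0.0434). This call was lost in 11 of the 18 alternatives, among them every one that left out a library (those 6 gave adjusted p of 0.0514 to 0.135, and all 18 gave 0.0299 to 0.182).

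Itgb4, the partner of alpha 6 in hemidesmosomes, was at 2.70, 2.76 and 2.23 RPKM and 2.07, 2.08 and 2.16. The groups did not overlap, yet the gene did not pass (log2 fold change -0.23, adjusted p = 0.0918), and it passed under 4 of the 18 alternatives: quantile normalization (adjusted p = 0.0387), the gene length trend removed (0.0173), limma-voom (0.0200) and without control replicate 3 (0.0305). Its exons share 523 bases with Galk1 on the opposite strand. Itgb2, the leukocyte beta subunit, had 1.94 ± 0.50 and 1.76 ± 0.42 RPKM (SD, n = 3) with overlapping values. Itgb6, Itgb7 and Itgb8, known mainly from epithelia, lymphocytes and TGF-beta activation, had at most 24 reads in a library. Without Itgb1 the other 7 beta genes summed to 84.5 ± 6.67 and 86.6 ± 6.34 RPKM, with no separation (exact two-sided permutation p = 0.7).

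Receptors for fibronectin and other proteins with the RGD motif did not move as one group. Itga5, the alpha subunit of the main fibronectin receptor, rose from 13.6, 14.04 and 12.01 RPKM to 15.9, 16.2 and 14.6, and the lowest GSK101 library lay just above the highest control. Its log2 fold change was 0.23 (SE 0.07, adjusted p = 0.0409), and 9 of the 18 alternatives lost the call (adjusted p from 0.00939 to 0.198 over all). The libraries whose omission ended it were control replicates 1 and 3 (0.0591 and 0.0904) and GSK101 replicates 1 and 2 (0.117 and 0.124).

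Itga8, the alpha subunit of the nephronectin receptor, which smooth muscle and some mesenchymal cells carry, fell from 17.5, 16.3 and 16.6 RPKM to 14.9, 15.1 and 13.7. The log2 fold change was -0.20 (SE 0.06, adjusted p = 0.0284). Omitting control replicate 1 or 3 or GSK101 replicate 1 or 3 ended this call, at adjusted p of 0.0762, 0.0531, 0.0618 and 0.0806, as did rescaling to TPM (0.0915). Pericyte and smooth muscle markers were lower in the same libraries, as given above, and their part in this difference was not tested. Itgav, whose protein pairs with several beta subunits, was at 28.8, 26.1 and 27.7 RPKM and 27.3, 28.0 and 26.4, with a log2 fold change of -0.01 (95% interval from -0.13 to 0.10). Itga2b, the platelet subunit, had 4 to 16 reads per library.

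Among the laminin-binding alpha subunits Itga3 rose and its 2 relatives did not pass. Itga3 went from 2.57, 2.24 and 1.98 RPKM to 3.27, 3.28 and 3.17, on 429 to 729 reads per library. The GSK101 libraries lay close together and above all controls, and the ratio of the means was 1.43-fold. On the log2 scale it rose by 0.44 (SE 0.09, adjusted p = 0.00894), and all 18 alternatives kept it past the threshold (0.32 to 0.52). Itga6 was at 5.004, 4.22 and 4.96 RPKM and 4.89, 5.17 and 5.21, which overlapped (log2 fold change 0.10, 95% interval from -0.08 to 0.28). Itga7, known as the laminin receptor subunit of muscle, was low at 0.615 ± 0.055 and 0.493 ± 0.022 RPKM (SD, n = 3), did not overlap and did not pass (adjusted p = 0.296).

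Itga4, whose protein binds fibronectin and VCAM1, was higher with GSK101 on a low level. It went from 0.321, 0.278 and 0.277 RPKM to 0.625, 0.743 and 0.540, on 40 to 48 and 76 to 110 reads per library. Every GSK101 library was above every control, and the ratio of the means was 2.18-fold. On the log2(RPKM + 0.5) scale, which understates the change of low genes, the fold change was 0.52. The filter let the gene in through its GSK101 level, so its call there is counted as a description and gives no support for a rise. With no filter beyond a value above 0 in 1 library the adjusted p was 0.0126. The log2 fold change was 0.90 with a pseudocount of 0.1 and 1.11 with limma-voom. The call made with the filter was lost without GSK101 replicate 1 or 2. Its relative Itga9 was at 2.26 ± 0.30 and 1.87 ± 0.24 RPKM and did not pass (adjusted p = 0.187).

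Alpha subunits of leukocyte integrins were near the limit of detection. Itgae, which lymphocytes of epithelia use to bind E-cadherin, was an exception at 1.73 ± 0.10 and 1.85 ± 0.11 RPKM (SD, n = 3), with overlapping groups. Itgal, the subunit of LFA-1, had 44, 36 and 32 reads in the controls and 10, 10 and 12 with GSK101, or 0.213, 0.181 and 0.161 RPKM against 0.0498, 0.0489 and 0.0618. The mean was 3.46-fold lower, with an exact two-sided permutation p of 0.1, the smallest possible here. Itgax and Itgad overlapped between the groups (exact permutation p = 0.3 and 0.9). Of 7 tested leukocyte and macrophage markers 1 rose, Cd14, and none passed as lower. Ptprc, which marks all leukocytes, had 0.493 ± 0.072 and 0.419 ± 0.063 RPKM (SD, n = 3), below the filter, and the part of leukocytes in the level of Itgal was not tested.

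**Figure D3:**
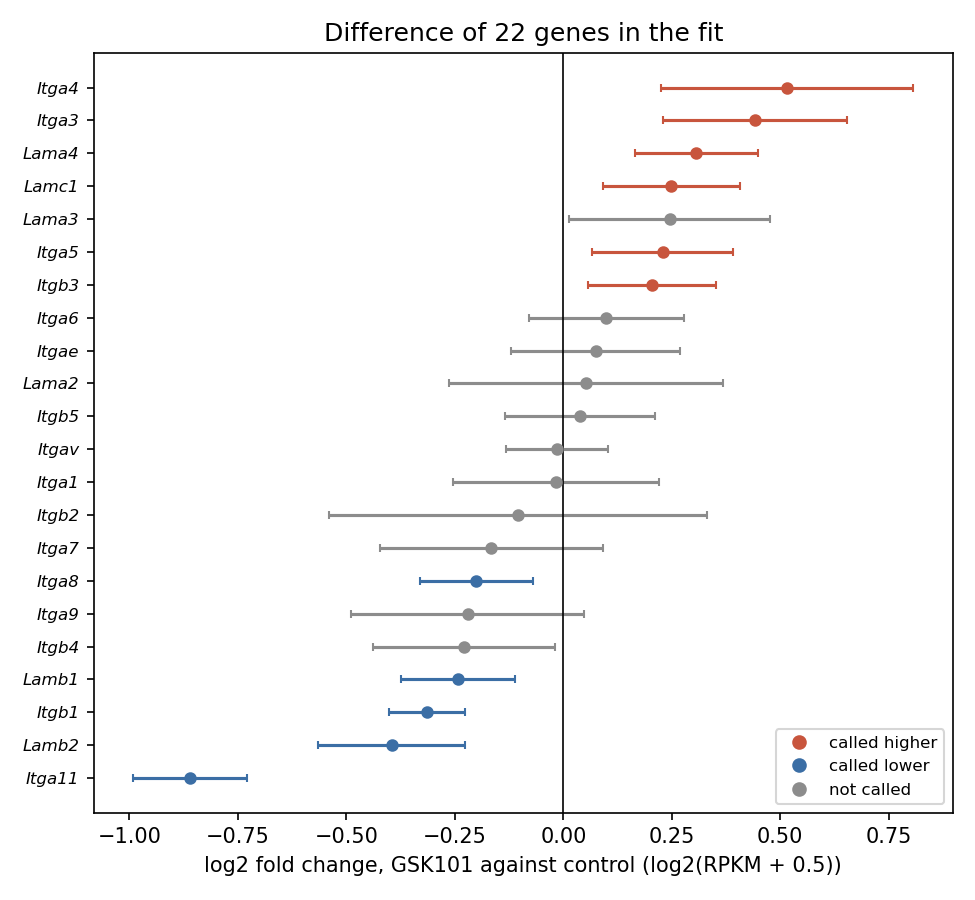
Log2 fold change, GSK101 against control, with its 95% interval from limma for 22 of the genes in the fit, in red where called higher, blue where called lower and grey otherwise. Itga11 at -0.86 stands apart at the low end, and Itga4 at 0.52 and Itga3 at 0.44 lie at the high end. Itga4 passed the filter only through its GSK101 libraries.

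Laminin chains of the same trimers moved in opposite directions. Of the 11 laminin genes 4 were abundant, Lama4, Lamb1, Lamb2 and Lamc1, which encode the alpha 4, beta 1, beta 2 and gamma 1 chains. Together they can form the alpha 4 laminins typical of mesenchymal and vascular cells. Lama4 and Lamc1 rose and Lamb1 and Lamb2 fell.

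Lama4, on the plus strand of chromosome 20 from 44060731 to 44209614, went from 43.4, 38.9 and 38.0 RPKM to 49.9, 51.7 and 47.3, without overlap. On the log2 scale it rose by 0.31 (SE 0.06, adjusted p = 0.00739), or 0.16 (adjusted p = 0.0537) with the gene length trend removed. It held 96.9% of the laminin alpha level in the controls and 97.0% with GSK101. Lamc1, on chromosome 13, minus strand, from 70658707 to 70783515, went from 90.5, 81.5 and 78.7 RPKM to 101, 105 and 92.04. The lowest GSK101 library lay only slightly above the highest control. The log2 fold change was 0.25 (SE 0.07, adjusted p = 0.0268), and 7 of the 18 alternatives lost the call (adjusted p from 0.00408 to 0.235 over all). Among them were the removal of the gene length trend, where the fold change was 0.10, and the omission of control replicate 2 or 3 or GSK101 replicate 1 or 2 (adjusted p of 0.0819, 0.0765, 0.0819 and 0.0868).

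Lamb2, on the plus strand of chromosome 8 from 117268337 to 117280517, went from 69.5, 70.5 and 60.1 RPKM to 51.1, 53.4 and 47.1. The means were 66.7 ± 5.74 and 50.5 ± 3.15 (SD, n = 3), 1.32-fold lower, and the difference on the log2 scale was -0.40 (SE 0.07, adjusted p = 0.00548). All 18 alternatives kept this call, at -0.54 to -0.35. Lamb1, on the plus strand of chromosome 6 from 50528823 to 50596079, went from 56.3, 55.2 and 50.2 RPKM to 44.6, 47.6 and 44.0, also without overlap. Its log2 fold change was -0.24 (SE 0.06, adjusted p = 0.0140), and the call was lost without GSK101 replicate 1 (adjusted p = 0.0529). Control replicate 3 had the lowest level of the controls for each of the 4 chains, and GSK101 replicate 3 the lowest of its group.

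Ratios of chains within a library do not depend on the scaling between libraries. They were chosen after the values were seen, 9 in all with those of integrin genes, and the laminin ratios set called genes over each other, so they restate these differences and are given with no test. The ratio of Lama4 to Lamb1 was 0.770, 0.705 and 0.756 in the controls and 1.12, 1.09 and 1.08 with GSK101, 1.47-fold higher. The ratio of Lama4 to Lamb2 was 0.624, 0.552 and 0.632 against 0.976, 0.969 and 1.004, and that of Lamc1 to Lamb2 1.30, 1.16 and 1.31 against 1.97, 1.98 and 1.95. These were 1.63-fold and 1.57-fold higher. Between the 2 chains that rose the ratio differed less, with Lama4 to Lamc1 at 0.480 ± 0.002 and 0.5001 ± 0.0122 (SD, n = 3). This was 1.04-fold higher, also without overlap. Lamb1 to Lamb2, the chains that fell, was at 0.809 ± 0.026 and 0.900 ± 0.030, or 1.11-fold higher and without overlap. The 4 genes have similar lengths in the table, 5645 to 5998 bases.

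With Lama4 and Lamc1 higher and Lamb1 and Lamb2 lower, the sum of all 11 laminin genes was 248 ± 16.6 RPKM in control libraries and 249 ± 13.9 after GSK101 (exact two-sided permutation p = 0.9). The beta chains summed to 121 ± 8.97 and 96.3 ± 4.90 and the alpha chains to 41.4 ± 2.94 and 51.1 ± 2.34, neither overlapping. Within the beta chains the share of Lamb2 went from 55.2 ± 0.78% to 52.5 ± 0.86%.

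**Figure D4:**
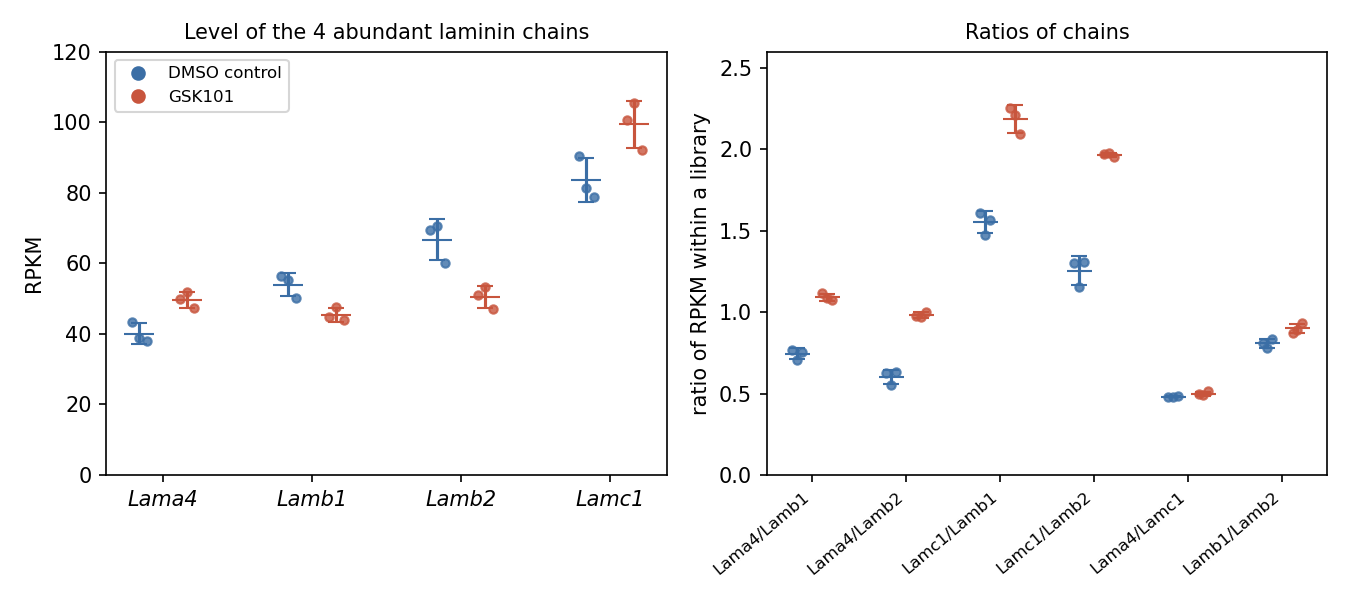
Left, RPKM of the 4 abundant laminin chains, and right, 6 ratios of their RPKM within each library, with points for the 3 control (blue) and 3 GSK101 (red) libraries, a bar at the mean and whiskers of 1 SD. The ratio of Lama4 to Lamb1 lies at 0.705 to 0.770 in the controls and 1.08 to 1.12 after GSK101.

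The stretches upstream of Lama4, which rose, and Lamb1, which fell, are shown in the same way from RefSeq (GRCr8), since these chains of one trimer moved apart. They lie on the plus strand at chr20:43946648-43946897 and chr6:53562846-53563095, and capitals again mark matches to the motifs searched.

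Lama4: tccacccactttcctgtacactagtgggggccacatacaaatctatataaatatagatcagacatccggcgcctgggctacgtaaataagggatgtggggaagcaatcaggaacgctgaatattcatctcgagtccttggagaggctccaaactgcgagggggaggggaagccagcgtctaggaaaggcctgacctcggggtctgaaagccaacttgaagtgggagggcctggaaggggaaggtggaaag

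Lamb1: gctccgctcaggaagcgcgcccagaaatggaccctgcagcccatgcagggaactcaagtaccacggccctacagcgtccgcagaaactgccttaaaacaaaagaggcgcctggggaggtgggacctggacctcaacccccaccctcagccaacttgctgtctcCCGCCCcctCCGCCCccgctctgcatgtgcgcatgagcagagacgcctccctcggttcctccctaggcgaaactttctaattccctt

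The Lamb1 stretch held 2 GC boxes and the Lama4 stretch held no match to any of the 5 motifs. The content of G and C was 62.0% for Lamb1 and 53.2% for Lama4, with 14 and 8 CG dinucleotides. Lamc1, which rose beside Lama4, had 71.2%, 19 CG dinucleotides, 5 GC boxes and 1 TEAD match, so the 2 chains that rose were unlike in these letters.

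The other laminin genes reported were scarce. Lama3 and Lamb3 encode chains of epithelial laminins. Lama3 was at 0.673, 0.691 and 0.645 RPKM and 0.948, 0.857 and 0.853, without overlap, and did not pass (log2 fold change 0.24, adjusted p = 0.102), though it did with limma-voom (0.40, adjusted p = 0.00345) and with no mean-variance trend (adjusted p = 0.0162). Lamb3, with 32 to 53 reads in control libraries and 60 to 70 in GSK101 libraries, lay below the filter and did not overlap either (exact permutation p = 0.1). Lama2, the chain of muscle and nerve laminins, was at 0.536 ± 0.068 and 0.579 ± 0.135 RPKM (SD, n = 3) and did not pass. Lama5 had 30 to 42 reads in control libraries and 16 to 28 in GSK101 libraries, while Lama1 and Lamc3 had at most 2 and 6 reads.

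**Figure D5:**
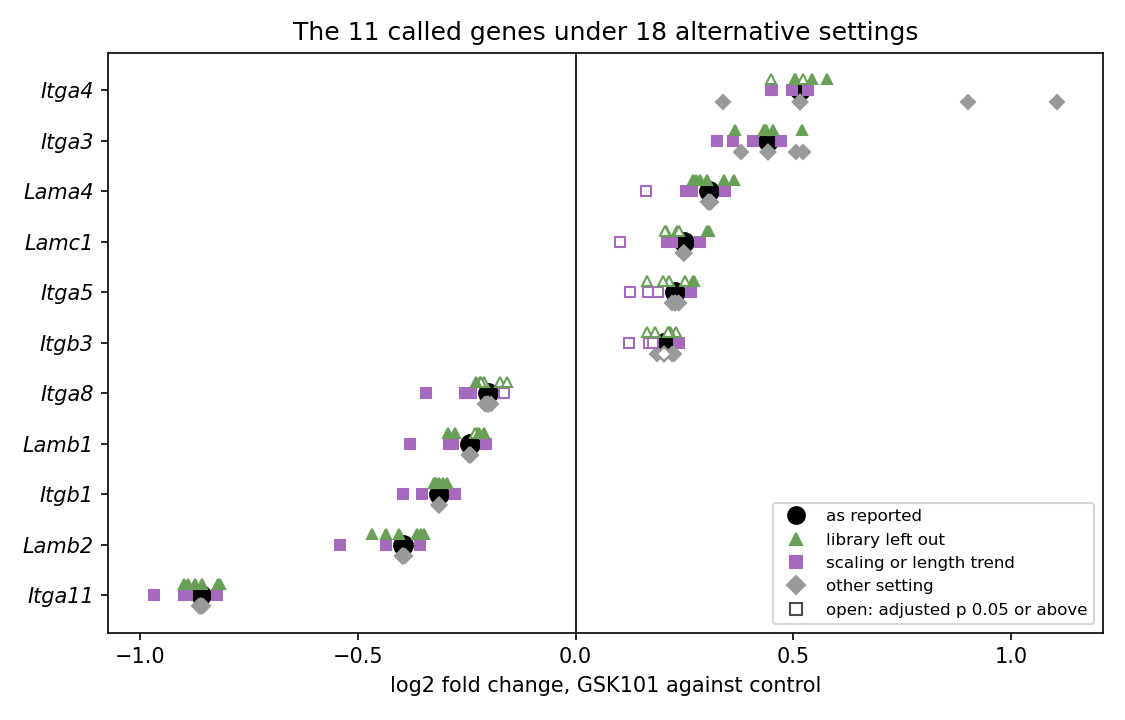
Log2 fold changes of the 11 called genes as reported (black circles) and under 18 alternative settings, drawn as triangles (1 library left out), squares (scaling or gene length trend) and diamonds (other settings), open where the adjusted p was 0.05 or above. Itga4 has 17 alternatives, as it was not tested with the filter of at least 1 RPKM in at least 3 libraries. All points of Itga11, Itgb1, Lamb2 and Itga3 are filled, and no point of the 11 genes crosses 0.

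Proteins that couple integrins to the cytoskeleton changed in both directions. Of 33 tested adhesion complex genes 6 rose and 9 fell, so 45.5% were called. Of all tested genes 20.1% rose and 11.9% fell. The list's median log2 fold change was -0.05 beside 0.03 for all tested genes. Parva, which encodes alpha parvin of the complex of ILK, PINCH and parvin, fell from 50.1 ± 0.98 to 40.4 ± 1.48 RPKM (SD, n = 3; adjusted p = 0.00181). On the log2 scale Lims2, which encodes PINCH2, fell by 0.66 and Itgb1bp2, which encodes the beta 1 binding protein melusin, fell by 0.68. Lims1 and Parvb, relatives of Lims2 and Parva chosen after their values were seen, rose. Lims1 went from 27.9 ± 3.02 to 36.6 ± 1.81 RPKM, above Lims2 at 9.10 ± 0.99 and 5.57 ± 0.68. Parvb, at a lower level than Parva, went from 2.38 ± 0.42 to 3.22 ± 0.24. Dab2, an adaptor for integrin endocytosis, rose from 22.5 ± 1.05 to 36.5 ± 2.52 (adjusted p = 0.000317). Of the other links to actin, chosen after their values were seen, Tln1, Fermt2 and Vcl did not pass at log2 fold changes of -0.07, 0.03 and 0.01. Actn4 and Ilk, chosen likewise, fell by 0.22 and 0.19, and Tns1 and Tns2 rose by 0.22 and 0.29.

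Of 14 tested basement membrane partners of the laminins 5 fell and 1 rose, so 42.9% were called beside 31.9% of all tested genes, and the median log2 fold change was -0.12. Nid1, which encodes nidogen 1, the linker that binds the laminin gamma 1 chain, fell from 208 ± 12.4 to 147 ± 6.39 RPKM (SD, n = 3; adjusted p = 0.000734), while Lamc1 itself rose. Sparc and Ntn4, which encode a collagen-binding matrix protein and the laminin-related netrin 4, had log2 fold changes of -0.29 and -0.28, and Smoc2 rose by 0.55. Col4a1 and Col4a2, the main collagen IV chains, chosen after their values were seen, were at 756 ± 66.9 and 709 ± 56.8 RPKM and at 456 ± 35.3 and 418 ± 33.3, and did not pass.

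Laminin receptors that are not integrins, with the proteins that anchor or glycosylate them, also moved both ways: 3 of 14 rose and 5 fell, or 57.1% called beside the 31.9% of all tested genes (median log2 fold change -0.03). Sdc4, the focal adhesion syndecan, rose from 41.9 ± 3.53 to 82.4 ± 3.54 RPKM (SD, n = 3), 1.96-fold (adjusted p = 0.000110). Sdc2 fell from 412 ± 4.23 to 303 ± 3.49 (adjusted p = 0.000190). On the log2 scale Sgce, which encodes epsilon sarcoglycan, fell by 0.39 and Large, whose enzyme builds the laminin-binding sugar of dystroglycan, fell by 0.38.

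Of 21 tested integrin ligands outside the laminins 5 rose and 7 fell, also 57.1% against 31.9% (median log2 fold change -0.14). None of these lists was tested against the other genes. Spp1, which encodes the RGD protein osteopontin, rose from 109 ± 11.5 to 220 ± 19.8 RPKM (SD, n = 3), 2.02-fold (adjusted p = 0.000272). Fbln5, which encodes the elastic fibre protein fibulin 5, an RGD protein too, went from 34.01 ± 0.72 to 18.96 ± 1.08, with a log2 difference of -0.83 (adjusted p = 0.000102). Ctgf and Tgfb3 fell by 0.52 and 0.60. Fn1, the fibronectin gene and ligand of the Itga5 product, rose from 887 ± 70.6 to 1098 ± 127 (log2 fold change 0.30, adjusted p = 0.0400). Its groups overlapped, with GSK101 replicate 3 at 951 RPKM and control replicate 1 at 968. The fibrillar collagen gene Col1a1, whose protein alpha 11 beta 1 binds, was at 1903 ± 135 and 1637 ± 140 and did not pass (adjusted p = 0.0652). Fn1 and Col1a1 were chosen after their values were seen. Vcam1, the counter-receptor of alpha 4 beta 1, was at 0.073 ± 0.016 and 0.079 ± 0.017 RPKM, below the filter.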

How the data were processed

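RNA of 6 libraries of rat disc cells was sequenced from poly-A selected, strand-marked libraries carrying molecular identifiers, per the labels' protocols. The authors deposited 1 table of RPKM values for 20675 genes with exon coordinates and gene lengths (Rnor_6.0). Tools listed without roles in the submitters' processing notes are edgeR 3.12.1, STAR 2.5.3a, Subread 1.5.1, featureCounts and Trimmomatic 0.36. The use of strand and of the molecular identifiers in counting is not stated in the sources used here. RPKM times length was a whole number of steps for 100% of values (tolerance 0.01 read), which gave the read numbers printed here. Counting error is the only error such numbers cover. Many of the low read numbers were even, those of Itgal, Lama5 and Itgb8 in all 6 libraries. Whether reads of the same fragment were counted apart was not tested, so independent fragments may be fewer than the reads printed.

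limma 3.58.1 (R 4.3.3) was fitted to log2(RPKM + 0.5) of all genes that reached 0.5 RPKM in 3 or more libraries. Group was the only term, with a mean-variance trend, and adjusted p-values are Benjamini-Hochberg over all 12801 genes. The fit was tested on simulated data. Genes below the filter, sums and shares were compared by exact two-sided permutation tests over libraries (scipy 1.17.1). Members and lists were chosen with earlier results of these data known. All members enter the counts. One is not reported here, and the others are described. The rule for naming took from each list the called genes lowest in adjusted p (4 at most), or where fewer than 2 were called the most abundant (2 at most). Members of the marker lists other than those printed are left out, among them some that the rule would name. Tnnt3, Cspg4, Des, Ptprc, Vim, Col3a1 and Vcam1 lie outside the rule and were chosen after their values were seen. Alternatives covered pseudocounts of 0.1 and 1, filters, scalings, gene length (loess, span 0.3), variance models, limma-voom on the recovered reads, a replicate block and leaving out each library. Motifs were searched in the 250 bases upstream of RefSeq gene starts (GRCr8), matched by symbol for 27 of the 36 members.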

Additional observations from a re-analysis of the deposited data

How the results depend on the processing

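Of the 11 called integrin and laminin genes 4 kept their call under all 18 alternatives, 7 lost it under at least 1, and none changed direction. Itga4 is among these 7 and was tested under 17 of the alternatives. Since the filter let it in through its GSK101 level, its direction there was fixed in advance. The count that rose was 6 as reported, 3 with no filter on low values and 2 with the gene length trend removed. Leaving out 1 library gave 2 to 5 rises and 3 to 5 falls, and the lowest counts came with GSK101 replicate 1 left out. Why these counts moved was not tested. Leaving out a library changes both how many libraries remain and which ones, and these fits cannot tell those apart. The count over all genes stayed within 1.5 times of the reported one: 1835 to 2945 rose and 1055 to 2141 fell.

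Of the 12 genes not called, 7 changed sign under some setting, in each case without passing. With the gene length trend removed the log2 fold changes were -0.17 for Lama2, -0.018 for Itgae, -0.047 for Itga6 and -0.053 for Itgb5. Rescaling to TPM gave 0.020 for Itga1 and 0.022 for Itgav, and median-ratio scaling -0.0012 for Itgb5. With 1 library left out Lama2 ran from -0.026 to 0.15, Itga1 from -0.13 to 0.097, Itgb2 from -0.29 to 0.046, Itgav from -0.053 to 0.017 and Itgb5 from -0.014 to 0.10.

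With the replicate number as a block 5 members rose and 5 fell, and over all genes 2508 rose and 1437 fell. The numbers were not taken as pairs, since over all tested genes the deviations of same-numbered libraries correlated by 0.05, -0.06 and 0.05. For single members the block moved the SE both ways, from 0.068 to 0.054 for Lamc1 and from 0.064 to 0.073 for Itgb3. Whether same-numbered libraries share an effect on single genes was not tested. Genes with few reads, such as Itgal and Lama5, are limited by depth, and 3 libraries against 3 allow no exact p under 0.1.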
